A study of Homo sapiens with 8 samples.

Results

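The interferon response genes described here are 33 genes that cells are known to switch on after exposure to interferon, chosen by symbol from a fixed list and found in the deposited tables as 33 of 40693 gene symbols. They were followed by RNA sequencing of total RNA in 4 groups of cultured human colorectal adenocarcinoma cells. SW480 and SW620 are established lines from the same patient, SW480 from the primary tumor and SW620 from a lymph node metastasis, and each was sequenced untreated as 1 library. The other 6 libraries came from SW620 cells carrying a lentiviral vector with the U6 promoter, puromycin resistance and mCherry, selected with puromycin as stable populations: 3 libraries labelled shFOXA2, with a hairpin against the transcription factor FOXA2, and 3 labelled shNC, with a control hairpin. Both hairpin groups therefore share the vector and the selection, which the untreated lines did not receive, and no label mentions interferon or a virus infection other than the vector. The labels describe a pair of FOXA2 hairpins and do not spell out which of them these libraries carry, so 1 hairpin cannot be set against another. Cells destined for injection into mice also carried luciferase, and whether the sequenced cells did is not stated.

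Interferons are secreted proteins that bind receptors on the cell surface. The receptors activate Janus kinases, which phosphorylate STAT proteins. STAT2 and IRF9 are parts of the complex ISGF3, which binds interferon-stimulated response elements in the promoters of target genes. The products sense viral RNA, degrade it, block its translation or its entry, and tag proteins with the ubiquitin-like protein ISG15, and many of them are also present at a low level in cells that see no added interferon. Tumor cell lines are known to differ widely in this resting level.

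Many promoters of interferon response genes are known to carry this element, and short stretches are shown for 8 members with it that are described below, among them ISG15, IFI6 and OAS3, which were called between the hairpins, and IFITM1, IFITM3, IFI27 and BST2, which were apart between the lines. RefSeq windows from 250 bases before to 50 bases after each annotated start (build GRCh38.p14) were matched for 25 of the 33 members. The 8 without a window were IFIT2, IFITM2, IRF7, MX2, OAS2, OASL, TRIM22 and USP18. The core of the response element was searched as GAAANNGAAA on both strands. Capitals mark each complete copy, including copies that overlap by 4 bases, and every stretch of 60 bases ends before the annotated start and reads 5′ to 3′ in the direction of transcription.
ISG15 (chr1:1013359-1013418, plus strand): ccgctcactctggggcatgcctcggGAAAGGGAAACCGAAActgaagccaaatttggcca
IFI6 (chr1:27672273-27672332, minus strand): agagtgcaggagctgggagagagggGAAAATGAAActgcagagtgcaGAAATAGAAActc
OAS3 (chr12:112938306-112938365, plus strand): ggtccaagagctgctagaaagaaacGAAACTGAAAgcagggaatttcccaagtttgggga
IFITM1 (chr11:313975-314034, plus strand): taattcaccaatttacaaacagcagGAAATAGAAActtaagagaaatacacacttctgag
IFITM3 (chr11:320878-320937, minus strand): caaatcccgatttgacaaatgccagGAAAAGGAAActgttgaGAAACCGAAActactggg
IFI27 (chr14:94110603-94110662, plus strand): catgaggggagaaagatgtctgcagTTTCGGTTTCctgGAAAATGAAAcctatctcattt
BST2 (chr19:17405726-17405785, minus strand): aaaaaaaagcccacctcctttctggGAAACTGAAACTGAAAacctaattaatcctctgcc
IFIT1 (chr10:89392482-89392541, plus strand): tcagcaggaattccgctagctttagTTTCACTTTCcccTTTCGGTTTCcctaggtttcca

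ISG15 and BST2 showed a pair of overlapping copies, IFI6 and IFITM3 a pair of separate ones, and IFIT1 a pair on the opposite strand, where the motif reads as its reverse complement. IFI27 held a copy in each orientation. The stretches of ISG15, IFITM1, IFITM3 and IFI27 lie inside the GENCODE spans of their genes given below, and that of OAS3 runs into its span. The motif was present in the windows of 18 of 25 members (72%), compared with 4.38% of the 27305 genes in the RefSeq table and 3.82% of the 10184 tabled genes that were tested between the hairpins. The 7 matched members without it were DDX58, HERC6, IFI35, IRF1, IRF9, OAS1 and STAT2. The STAT dimer element, searched as TTCNNNGAA, was found in 8 of 25 members (32%) and in 9.38% of all tabled genes, and in 4 members (BST2, IFI27, IFITM1 and MX1) a match to it shared bases with a match to the first motif. These are matches of letters in a fixed window; binding was not measured, and a window without a match says only that these letters are not there.

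**Figure D1:**
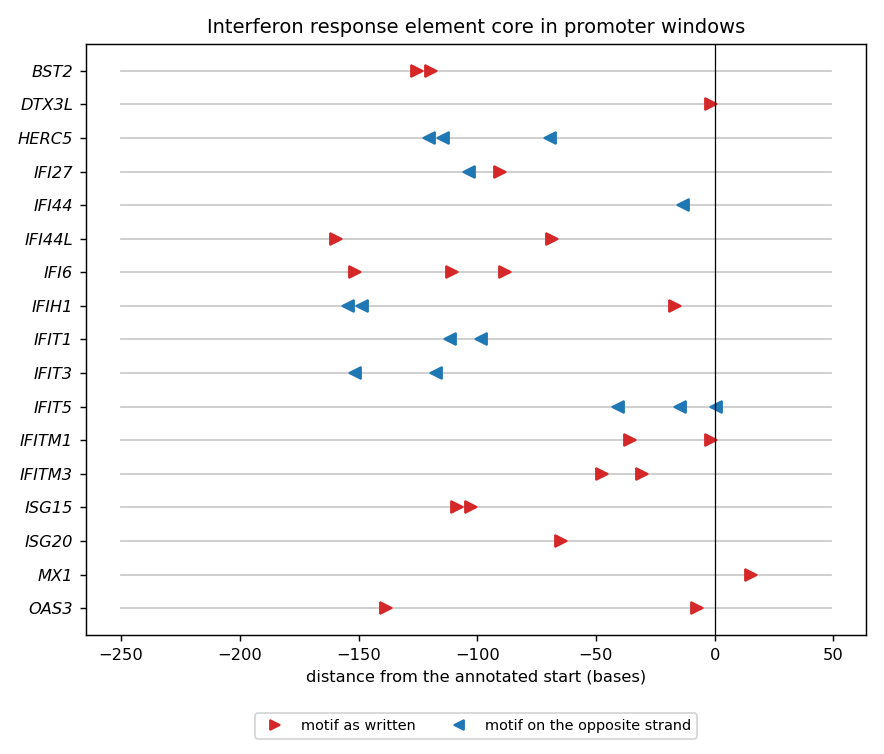
Position of each GAAANNGAAA match in the first RefSeq promoter window of the members that hold one there; the x axis gives the distance in bases from the annotated start, and arrows give the orientation of the motif. Most matches lie within the last 160 bases before the start; PARP9, whose match lies in its other window, is not drawn.

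Total counts per library ran from 7478411 to 13076566 in the hairpin groups and were 72323506 in SW480 and 95935348 in SW620, so that 3 counts correspond to 0.0313 to 0.401 CPM (counts scaled to the size of the library). Levels below are CPM after TMM scaling over all 8 libraries, and the labels do not say whether replicates were separate cultures, so that p-values measure only the spread between these samples. FOXA2 itself was at 51.1 ± 1.89 CPM in shNC and 26.9 ± 4.27 CPM in shFOXA2 (SD, n = 3 each), which is -0.91 on the log2 scale (SE 0.09, adjusted p = 6.88e-10, edgeR), and at 4.62 CPM in SW480 and 81.5 CPM in SW620. Replicate 1 of each hairpin group stood further from its 2 partners than these from each other: the chi-square of their counts over genes, divided by its degrees of freedom, was 3.97 to 4.60 for pairs that include it and 1.67 and 1.74 for the other pairs. Epithelial markers summed to 6008 to 8889 CPM in the 8 libraries. KRT20 was at 0 in SW480. The 12 leukocyte markers summed to 6.56 CPM in SW480, 16.8 in SW620, 19.4 to 24.7 in shNC and 25.6 to 29.6 in shFOXA2, with CD2 and MS4A1 at 0 in every library. The 9 fibroblast and endothelial markers summed to 4.20, 10.4, 11.7 to 16.1 and 16.6 to 21.9 CPM in the same order, with COL1A2 and COL3A1 at 0 in every library. Both sums were higher in shFOXA2 than in shNC, and their part in the results below was not tested. In the hairpin libraries CD68 and LYZ were the largest parts of the leukocyte sum and LUM of the other. CD68 was at 12.4 to 15.4 CPM in shNC and 12.8 to 18.0 CPM in shFOXA2. LYZ was at 4.53 to 5.38 and 7.73 to 9.36 CPM, and LUM at 8.21 to 9.31 and 11.3 to 14.2 CPM, in the same order. Mitochondrial genes took 11.1% and 11.7% of counts in the untreated lines and 4.46% to 4.82% in the hairpin libraries.

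Under the FOXA2 hairpin the interferon response genes did not move as a block. ISG15, MX2, USP18 and IRF7 fell, IFI6, IRF9, STAT2, DTX3L and OAS3 rose, and 18 other members did not pass the test. Of the 33 members, 27 had enough counts to be tested and 6 did not (BST2, HERC5, IFI44, IFI44L, OASL and TRIM22). With edgeR's quasi-likelihood test and Benjamini-Hochberg adjustment over all 16100 tested genes at 0.05, 9 of 27 members were called (33.3%), against 39% of all tested genes. The 5 members called higher stood against a background of 19.2% and the 4 called lower against 19.8%. The share called among the members was thus no higher than among genes in general. The counts by role given below rest on few genes each and stand against the same 39%. Their median log2 fold change was 0.15 and their median absolute change 0.27, beside 0.01 and 0.21 over all tested genes. In these bulk libraries, fewer cells with a transcript and less of it per cell cannot be told apart.

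**Figure D2:**
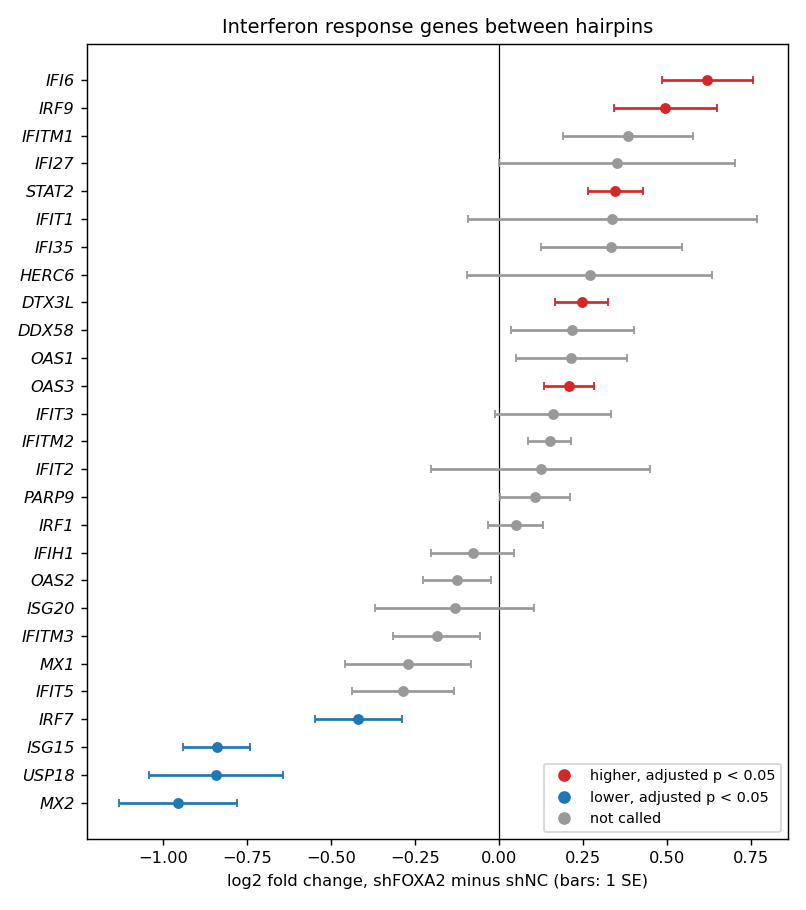
Log2 fold change of the 27 tested members, shFOXA2 minus shNC, with bars of 1 SE; red and blue points passed an adjusted p of 0.05 and gray points did not. MX2, USP18 and ISG15 lie furthest to the left, between -0.96 and -0.84, and IFI6 furthest to the right at 0.62.

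Of the 5 tested genes of the ISG15 system and its ubiquitin or ADP-ribose enzymes, ISG15 and USP18 fell and DTX3L rose. ISG15 (chr1:1001138-1014540, plus strand, GENCODE release 29 on GRCh38) encodes the ubiquitin-like protein that is attached to other proteins during the response, and its promoter stretch above holds overlapping copies of the motif. It was at 35.4, 28.8 and 32.2 CPM in shNC replicates 1 to 3 and at 20.5, 16.0 and 16.1 CPM in shFOXA2 replicates 1 to 3. Every library of the FOXA2 hairpin was lower than every control library. The means were 32.1 ± 3.33 and 17.6 ± 2.58 CPM (SD, n = 3 each), and the log2 fold change was -0.84 (SE 0.10, adjusted p = 1.87e-08, edgeR).

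USP18 (chr22:18149899-18177397, plus strand) is the protease that removes ISG15 from its targets and also restrains signaling at the type I interferon receptor. It was at 4.96, 6.91 and 6.93 CPM in shNC and at 4.02, 3.36 and 2.87 CPM in shFOXA2, from 64 to 90 counts and 25 to 49 counts per library. The groups did not overlap, although shNC replicate 1 came close to shFOXA2 replicate 1. Its log2 fold change was -0.84 (SE 0.20, adjusted p = 0.000607, edgeR).

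DTX3L, an E3 ubiquitin ligase, and PARP9, an ADP-ribosyltransferase that works with it, are divergent neighbors on chromosome 3. DTX3L held 1 motif match in its window, and PARP9 held 1 match in 1 of its 2 windows. DTX3L was at 33.2, 29.6 and 31.8 CPM in shNC and at 39.5, 37.4 and 33.7 CPM in shFOXA2, a narrow separation without overlap. Its log2 fold change was 0.24 (SE 0.08, adjusted p = 0.0126, edgeR), and the gene was no longer called without shFOXA2 replicate 1 (0.18, adjusted p = 0.111), without shNC replicate 2 (adjusted p = 0.0774) and with DESeq2's Wald test (adjusted p = 0.0834). PARP9 was not called (log2 fold change 0.11, SE 0.10, adjusted p = 0.456, edgeR). Their exons overlap on opposite strands in GENCODE, and without knowledge of strand use in the counting, reads of the shared bases cannot be assigned. HERC6, a HECT-type ligase, was at 1.10 ± 0.25 CPM in shNC and 1.31 ± 0.36 CPM in shFOXA2 (SD, n = 3 each) and was not called. HERC5, the main ligase that attaches ISG15 in human cells, had 0 counts in all 6 hairpin libraries, which allows up to 0.229 to 0.401 CPM by counting error alone.

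Among the 16 direct antiviral effectors, 13 were tested, and 1 was called higher and 1 lower. MX2 (chr21:41361943-41409390, plus strand), a dynamin-like GTPase known for blocking HIV-1 nuclear entry, had the largest log2 change of the 27 tested members. It was at 7.29, 7.52 and 8.97 CPM in shNC, from 94 to 110 counts, and at 3.94, 3.62 and 4.46 CPM in shFOXA2, from 27 to 48 counts. The shFOXA2 libraries were all below the shNC libraries, and the log2 fold change was -0.96 (SE 0.17, adjusted p = 1.92e-05, edgeR). Its neighbor and paralog MX1, which blocks influenza and other RNA viruses, was at 5.56 ± 0.72 and 4.49 ± 0.77 CPM (SD, n = 3 each), its groups overlapped, and it was not called (log2 fold change -0.27, SE 0.19, adjusted p = 0.269, edgeR). MX1 and MX2 are near in sequence, and how the counting treated reads that could come from either is not given.

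OAS3 (chr12:112938352-112973249, plus strand) makes the oligoadenylates that activate RNase L once it binds double-stranded RNA. It was at 39.2, 35.0 and 38.2 CPM in shNC and at 39.5, 42.7 and 46.2 CPM in shFOXA2. The lowest shFOXA2 library lay only just above the highest shNC library. Its log2 fold change of 0.21 (SE 0.07, adjusted p = 0.0230, edgeR) lost the call without shFOXA2 replicate 3 (0.14, adjusted p = 0.216), without shFOXA2 replicate 2 (adjusted p = 0.0504), without shNC replicate 2 (0.145) or 3 (0.0519), without a filter on low counts (0.0712) and with DESeq2's Wald test (0.129). The related synthases OAS1 and OAS2 had log2 fold changes of 0.21 (SE 0.16) and -0.13 (SE 0.10) and were not called.

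The other effectors gave no call. The IFIT proteins bind viral RNA ends and hold back its translation. IFIT1, IFIT2 and IFIT3 had log2 fold changes of 0.34 (SE 0.43), 0.12 (SE 0.32) and 0.16 (SE 0.17), with intervals that reach from -0.51 to 1.18 for IFIT1, and depth was low, at 0.79 ± 0.24 CPM in shNC for IFIT1 (SD, n = 3). IFIT5 was at 9.07, 8.52 and 8.08 CPM in shNC and at 7.23, 7.11 and 6.44 CPM in shFOXA2, groups that did not overlap, and was not called (log2 fold change -0.29, SE 0.15, adjusted p = 0.134, edgeR).

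The IFITM proteins sit in membranes and hinder viral fusion. IFITM1 (chr11:313506-315272) was at 3.95, 4.53 and 3.59 CPM in shNC and at 4.93, 6.04 and 4.76 CPM in shFOXA2. These groups did not overlap either, but the adjusted p was 0.118 (log2 fold change 0.38, SE 0.19, edgeR). IFITM2 (chr11:307631-315272) was at 57.1, 56.1 and 51.4 CPM in shNC and at 58.8, 66.4 and 56.0 CPM in shFOXA2, with overlap, and its log2 fold change was 0.15 (SE 0.06, adjusted p = 0.0616, edgeR). It was called higher without shFOXA2 replicate 3 (0.19, adjusted p = 0.0389). IFITM3 (chr11:319669-327537) was at 11.9, 14.0 and 10.9 CPM in shNC and at 10.3, 12.2 and 9.81 CPM in shFOXA2 and was not called (-0.19, SE 0.13). The 3 IFITM genes are close paralogs in 1 cluster on chromosome 11, and GENCODE lets exons of IFITM1 and IFITM2 overlap on the same strand, so the split of reads between them is uncertain. ISG20, an exonuclease, was not called (-0.13, SE 0.24).

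Of the IFI genes, named only for their induction by interferon, 3 of 5 were tested and 1 rose. IFI6 (chr1:27666061-27672218, minus strand), a small membrane protein with 3 copies of the motif in its window, was at 16.9, 17.3 and 16.4 CPM in shNC and at 31.8, 20.3 and 23.7 CPM in shFOXA2. The groups did not overlap, and shFOXA2 replicate 1 stood well above its partners. The log2 fold change was 0.62 (SE 0.14, adjusted p = 0.00243, edgeR), and without shFOXA2 replicate 1 it was 0.40. IFI27 and IFI35 had log2 fold changes of 0.35 (SE 0.35) and 0.33 (SE 0.21) and were not called. The RNA sensors DDX58, which encodes RIG-I, and IFIH1, which encodes MDA5, were not called either, at 0.22 (SE 0.18) and -0.08 (SE 0.12).

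Of the 4 transcription factors among the members, 3 were called, too few genes to set apart from the 39% of all tested genes. STAT2 (chr12:56341597-56360155, minus strand), the ISGF3 subunit that carries the activation domain, was at 28.3, 26.1 and 28.9 CPM in shNC and at 38.1, 32.8 and 33.2 CPM in shFOXA2. Every shFOXA2 library was above every shNC library, and the log2 fold change was 0.35 (SE 0.08, adjusted p = 0.000700, edgeR). IRF9 (chr14:24161053-24166565, plus strand), the DNA-binding subunit of ISGF3, was at 6.28, 6.75 and 6.61 CPM in shNC and at 8.21, 9.66 and 9.61 CPM in shFOXA2, also without overlap.

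The log2 fold change of IRF9 was 0.49 (SE 0.15, adjusted p = 0.00814, edgeR; 0.0618 with DESeq2's Wald test), and a same-strand GENCODE gene overlaps its exons. IRF7 (chr11:612553-615999, minus strand), the factor that amplifies type I interferon production, went the other way from STAT2 and IRF9. It was at 12.6, 13.5 and 12.6 CPM in shNC and at 9.20, 11.4 and 8.32 CPM in shFOXA2, a change of -0.42 on the log2 scale (SE 0.13, adjusted p = 0.00830, edgeR). The groups did not overlap, and IRF7 was no longer called without shFOXA2 replicate 3 (-0.34, adjusted p = 0.0716) and with DESeq2's Wald test (adjusted p = 0.0621). IRF1, the factor shared with the response to type II interferon, was not called (0.05, SE 0.08).

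**Figure D3:**
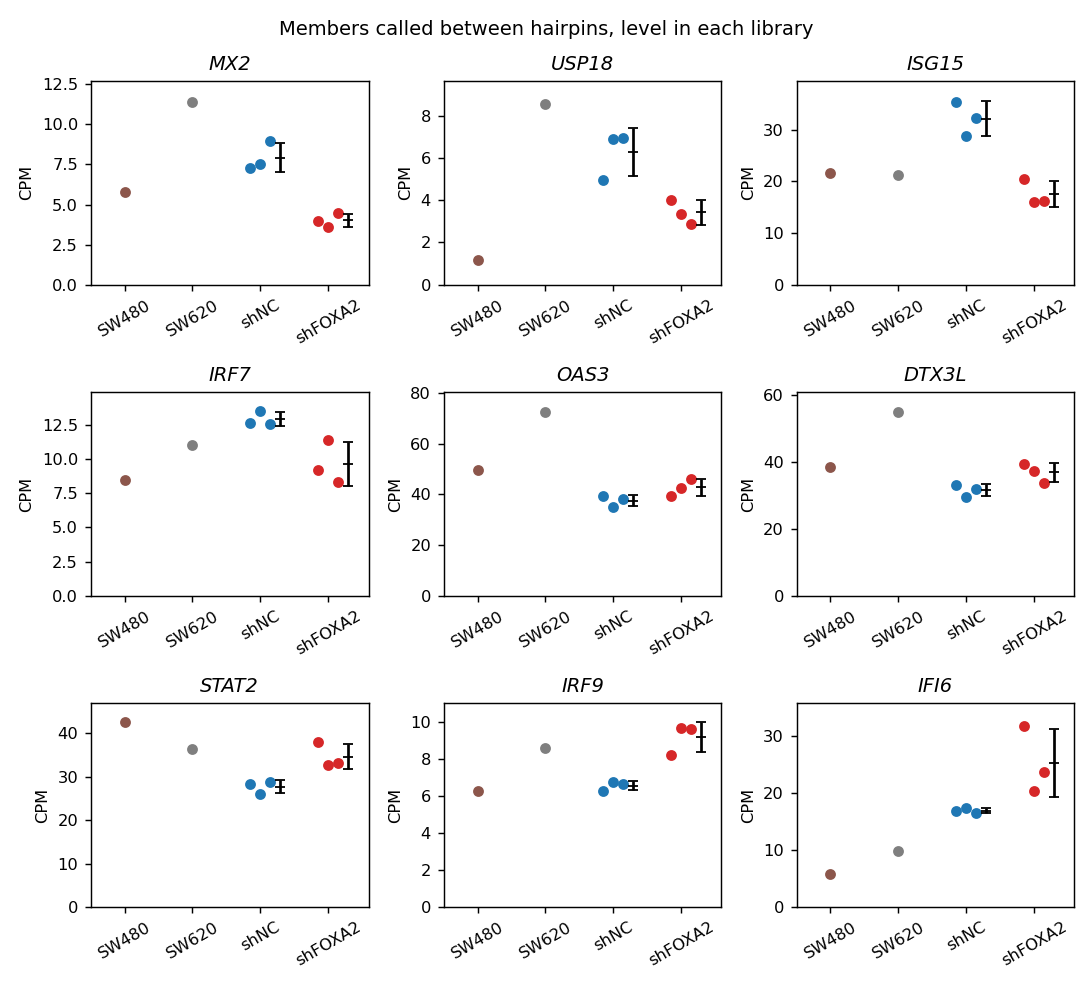
Level in CPM (TMM over 8 libraries) of the 9 called members in every library; points are libraries, and the horizontal mark with its bar gives the mean and SD of the 3 hairpin libraries beside them. MX2, USP18, ISG15 and IRF7 are lower in shFOXA2 than in shNC and the other 5 genes higher, without overlap between the hairpin groups in any panel.

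The 9 called members were also the larger part of the 11 whose hairpin groups did not overlap, the other two being IFIT5 and IFITM1, against 48.3% of all tested genes. An exact two-sided permutation test on a single gene gave p = 0.1 for each called member, the smallest that 3 against 3 libraries allow. ISG15, MX2, USP18, IFI6 and STAT2 kept their direction and call in every alternative tried. DESeq2's Wald test called 2 members higher and 3 lower, and without shNC replicate 2 edgeR called 3 higher and 4 lower.

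The rest of the pathway was read from 6 lists of 108 other genes in these tables, of which 61 were tested and 20 called (32.8%), 14 higher and 6 lower. This share too was close to the 39% of all tested genes. With DESeq2's Wald test 6 were called higher and 5 lower, and edgeR called 9 higher without shFOXA2 replicate 1 or without shFOXA2 replicate 3, and 8 higher without shNC replicate 2 or without shNC replicate 3.

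The 21 interferon ligand genes were close to silent: 16 had 0 counts in all 8 libraries, and none could be tested. Only IFNE, an interferon known from epithelia, had more than 2 counts in any library, with 26 in SW480, 36 in SW620 and 0 to 5 in the hairpin libraries. All 9 receptor and Janus kinase genes were tested. IFNAR1, a chain of the type I receptor, was at 73.8 CPM in shNC and 73.7 CPM in shFOXA2. The other chain, IFNAR2, was at 15.3 and 13.4 CPM in the same order, without overlap between the groups. IFNAR2 was not called (log2 fold change -0.17, SE 0.11, adjusted p = 0.235, edgeR). The type II receptor chains IFNGR1 and IFNGR2 were called higher, at 0.26 (SE 0.09, adjusted p = 0.0139, edgeR) and 0.20 (SE 0.08, adjusted p = 0.0356, edgeR), and both calls were lost with DESeq2's Wald test (0.101 and 0.164) and without shNC replicate 2 (0.0535 and 0.0814) or shNC replicate 3 (0.0592 and 0.174). The IFNGR2 call was also lost without shFOXA2 replicate 1 (0.0592), without shFOXA2 replicate 3 (0.156) and with scaling by total counts (0.0508).

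Of 6 tested STAT and IRF genes outside the members none was called. Of the 11 tested genes of nucleic acid sensing, 2 rose and 3 fell. TRAF3, a ligase that links sensing to interferon production, fell from 59.9 ± 1.39 to 44.8 ± 2.07 CPM (SD, n = 3 each) and TRIM25, the ligase that ubiquitinates RIG-I, from 134 ± 9.48 to 106 ± 3.57 CPM. Their log2 fold changes were -0.40 (SE 0.06, adjusted p = 1.19e-06) and -0.31 (SE 0.05, adjusted p = 2.65e-06, edgeR). TICAM1, the adaptor of the endosomal receptor TLR3, rose by 0.47 (SE 0.10, adjusted p = 0.000119, edgeR).

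Of 8 tested feedback inhibitors, 2 rose and 1 fell. PTPN2, a phosphatase that removes phosphate from Janus kinases, rose from 51.2 ± 0.88 to 65.0 ± 3.25 CPM (SD, n = 3 each; log2 fold change 0.36, SE 0.06, adjusted p = 4.25e-06, edgeR). TRIM21 rose by 0.33 (adjusted p = 0.0225) and NLRC5 fell by 0.52 (adjusted p = 0.0259, edgeR), although the groups of NLRC5 overlapped. The TRIM21 call was lost without shFOXA2 replicate 1 (0.157) and without shNC replicate 3 (0.168), and the NLRC5 call without shFOXA2 replicate 1 (0.131), shNC replicate 2 (0.153) or shNC replicate 3 (0.126). With DESeq2's Wald test neither was called (0.139 and 0.131). SOCS3 had the largest log2 change of the 8 and was not called (1.92, SE 1.46, adjusted p = 0.388, edgeR). It was at 171, 9.80 and 11.4 CPM in shFOXA2 replicates 1 to 3 and at 35.8, 8.67 and 9.22 CPM in shNC. Replicate 1 stood far above its partners in both groups, and the cause was not tested. SOCS3 was singled out after its values were seen.

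Among 27 tested genes of 42 further interferon-stimulated genes, 8 rose and 2 fell. LGALS3BP, a secreted galectin-binding protein, fell from 257 ± 10.4 to 194 ± 1.88 CPM (SD, n = 3 each; log2 fold change -0.38, SE 0.04, adjusted p = 1.54e-09, edgeR). The helicase-like genes ZNFX1 and HELZ2 rose by 0.40 (SE 0.05, adjusted p = 2.55e-08) and 0.38 (SE 0.10, adjusted p = 0.00181, edgeR).

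Between the untreated lines, the IFITM genes, IFI27 and BST2 were higher in SW480, and USP18 was higher in SW620. Most other members differed by under 2-fold. With 1 library per line there is no test; the intervals given cover counting error only, and the line and the library cannot be told apart. A gene was counted as apart when it differed at least 4-fold after adding 1 CPM to both values and had at least 20 counts in the higher library. Of the 30 members with enough counts, 5 were higher in SW480, against 3% of 21343 genes, and 1 was higher in SW620, against 2.21%. At 2-fold the counts were 5 and 4, against 9.17% and 7.79%. The median log2 ratio, SW620 over SW480, was 0.10, with 18 members above 0 and 12 below.

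All 5 genes higher in SW480 encode small membrane proteins, 3 of them of the IFITM family. IFITM1 was at 24.8 CPM in SW480 and 0.32 CPM in SW620, from 1713 and 31 counts, a 77.5-fold difference (95% interval 54.4 to 114). IFITM3 was at 180 and 14.7 CPM, 12.3-fold (11.6 to 13.0), and IFITM2 at 215 and 52.1 CPM, 4.12-fold (3.99 to 4.26). IFITM2 lies at the edge of the 4-fold limit and falls under it with scaling by total counts alone, which leaves 4 members higher in SW480.

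IFI27 (chr14:94104836-94116698, plus strand), a small membrane protein, was at 61.8 CPM in SW480 and 2.94 CPM in SW620, a 21.0-fold difference (18.7 to 23.8). BST2 (chr19:17402939-17405648, minus strand), known as tetherin, which holds budding viruses at the cell surface, was at 10.1 and 1.47 CPM, 6.88-fold (5.74 to 8.30). HERC5 had 70 counts in SW480 and 1 in SW620, a ratio of 98.1 whose interval runs from 17.0 to 3930, and it stays under 4-fold once 1 CPM is added.

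USP18 was the 1 member counted as higher in SW620, at 8.56 CPM against 1.19 CPM in SW480, 7.20-fold (5.74 to 9.15), while its substrate ISG15 was at 21.2 and 21.7 CPM, a ratio of 1.02 (0.96 to 1.09). IFIT1 and IFIT2 were 5.50-fold (4.02 to 7.68) and 5.17-fold (4.04 to 6.70) higher in SW620 on the unadjusted scale, at 3.59 and 5.47 CPM, but under 4-fold with 1 CPM added. IFIT3 was 2.70-fold higher (2.34 to 3.13). The OAS and MX genes moved less: OAS3 was at 49.6 CPM in SW480 and 72.6 CPM in SW620, OAS2 at 12.8 and 8.22 CPM, and MX2 at 5.81 and 11.4 CPM. IRF1, IFI35 and DDX58 lay within 1.06-fold of equal.

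IFI44, IFI44L and TRIM22 had 0 counts in SW480 and 13, 4 and 8 counts in SW620. The exact binomial interval put IFI44 at least 2.17-fold higher in SW620. Against a floor of 3 counts in SW480 its ratio was 3.09, a value that leaves out the counting error of the 13 counts. The transcription factors were all within 1.37-fold between the lines, STAT2 higher in SW480 at 42.7 against 36.5 CPM. Of the 42 further interferon-stimulated genes, 36 had enough counts in the lines. SAMD9 and TNFSF10 were higher in SW620, at 35.1 against 2.94 CPM and 135 against 10.6 CPM. GBP3, NMI and LAMP3 were higher in SW480, at 5.98 against 0.35 CPM, 15.3 against 1.86 CPM and 7.64 against 0.93 CPM. These 5 genes were singled out after their values were seen.

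**Figure D4:**
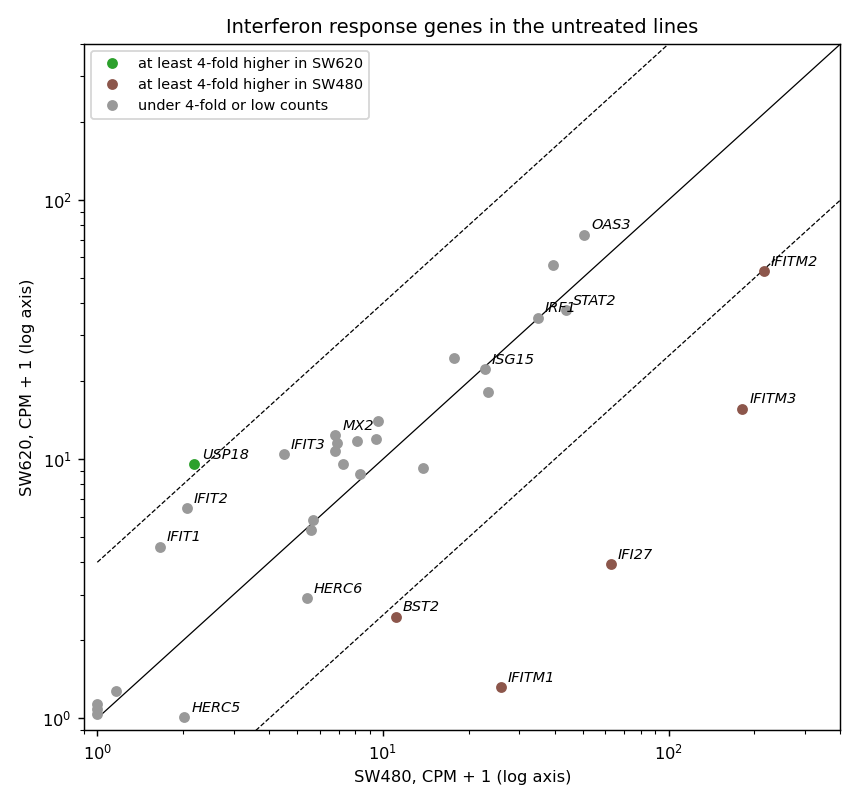
Level of the 33 members in untreated SW480 (x axis) and untreated SW620 (y axis), 1 library each, as CPM plus 1 on log axes; the solid line marks equality and the dashed lines 4-fold. IFITM1, IFI27, IFITM3, BST2 and IFITM2 lie beyond the line on the SW480 side and USP18 beyond it on the SW620 side.

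The summed level of all members was 806 CPM in SW480, 461 CPM in SW620, 366 to 391 CPM in shNC and 377 to 403 CPM in shFOXA2. IFITM2 and IFITM3 held much of the gap between the lines, at 215 and 180 CPM in SW480 and 52.1 and 14.7 CPM in SW620. Counted by gene, 18 of 30 members were higher in SW620 and 12 in SW480, so the sum does not stand for the members in general. The deposited length is 1 value per gene, such as 4157 bases for IFI27 and 13175 for MX2, and need not equal the transcripts made here. Ranks between genes per kilobase depend on it. Per kilobase of this length, IFITM2 was the highest member in SW480, SW620 and shFOXA2, at 164, 39.8 and 46.2 CPM per kilobase. In shNC it was ISG15, at 45.2 CPM per kilobase, beside 42.0 for IFITM2. IFITM3, IFI6 and IFITM1 completed the 5 highest members by the mean of the 4 groups. IFITM1 ranked 4 in SW480 and 28 in SW620 on this scale, and 10 and 8 in the hairpin groups. IFI6 ranked 8 in SW480, 3 in SW620 and shNC and 2 in shFOXA2. At the other end, OASL, HERC5, IFI44, TRIM22 and IFI44L stayed under 0.22 CPM per kilobase in all 4 groups.

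Most members were lower in the control hairpin libraries than in untreated SW620. The comparison took genes with at least 20 counts in the untreated library or in any shNC library, 29 members among them. Of these, 22 were higher in the untreated library than in all 3 shNC libraries, against 46.3% of 20252 genes. Another 5 were lower, against 35.5%. BST2, HERC6, IFI27, IFIT1 and OASL, all among the 22, reached 20 counts only in the deeper untreated library. They could thus enter the comparison only by being high there. IFIT1 was at 3.59 CPM untreated and 0.54 to 1.01 CPM in shNC, BST2 at 1.47 and 0.16 to 0.47 CPM, MX1 at 10.8 and 4.73 to 5.99 CPM, and OAS3 at 72.6 and 35.0 to 39.2 CPM. IFITM1, OAS2, IFI6, ISG15 and IRF7 lay the other way.

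IFITM1 was at 0.32 CPM untreated and 3.59 to 4.53 CPM in shNC, where its mean was 12.6-fold higher. OAS2 was at 8.22 and 16.6 to 19.5 CPM, IFI6 at 9.77 and 16.4 to 17.3 CPM, and ISG15 at 21.2 and 28.8 to 35.4 CPM. For ISG15 the shFOXA2 libraries, at 16.0 to 20.5 CPM, were below the untreated library too, whereas for USP18 and MX2 the untreated library, at 8.56 and 11.4 CPM, stood above both hairpin groups. The untreated and the hairpin libraries differ in the vector, the selection, the depth and the mitochondrial share, and these cannot be told apart.

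**Figure D5:**
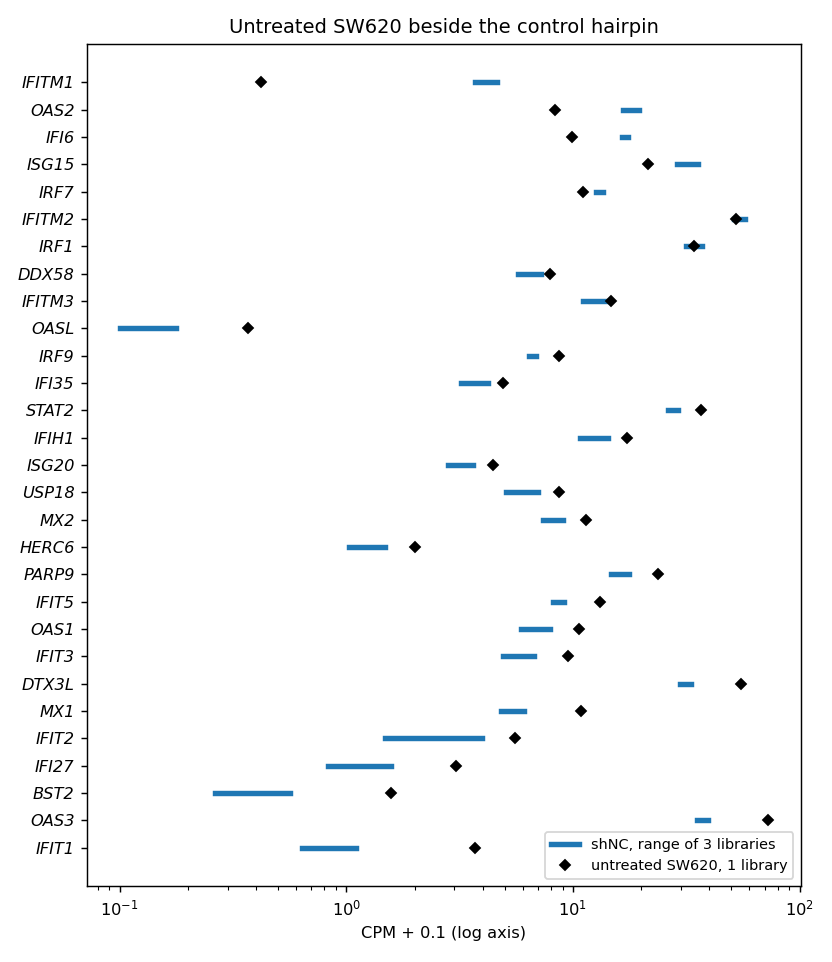
Level of 29 members in untreated SW620 (diamond, 1 library) and in the control hairpin (bar, lowest to highest of 3 libraries), as CPM plus 0.1 on a log axis. The diamond lies to the right of the bar for 22 members and to the left for IFITM1, OAS2, IFI6, ISG15 and IRF7.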

How the data were processed

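RNA sequencing libraries of 8 samples were analyzed from the deposited tables, 1 per library, each with 42713 entries of Ensembl identifier, symbol, raw count, length and RPKM. The deposited RPKM values equal the count scaled by length and total for 100% of genes above 20 counts (relative tolerance 1e-04) and served only for that check. The submitters' processing notes name HOMER and hg19; the labels name a directional kit, with aligner and strand use not given in the sources used here. Of 256 repeated symbols, none a member, the entry with the highest summed count was kept.

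The deposited counts of the hairpin libraries were compared, 3 against 3, with edgeR 4.0.16 in R 4.3.3 (TMM, filterByExpr, robust quasi-likelihood test without a replicate term, two-sided, Benjamini-Hochberg over 16100 genes, 0.05). DESeq2 1.42.0 and limma 3.58.1 were alternatives. The biological coefficient of variation was 6.59%. The untreated lines were compared by ratios of TMM-scaled counts with exact conditional binomial 95% intervals. Fits were tested on simulated data. PCR reads carry no molecular identifiers, so intervals and floors cover counting error only. Members, gene lists and tests were chosen with earlier results of these data known. Values per library are given for called members, members at least 4-fold apart between the lines and the 5 highest per kilobase, and from each further list up to 3 genes by p, except 1 item that is not reported here. Gene positions are from GENCODE release 29 (GRCh38) and promoter windows from RefSeq (GRCh38.p14); the tables' own coordinates were not used.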

Additional observations from a re-analysis of the deposited data

How the results depend on the processing

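Of the 27 tested members, 18 kept their direction and their side of the threshold in every alternative tried. DTX3L, IRF7, IRF9, OAS3 and IFITM2 kept their direction but changed side in some. Another 4, called in no alternative, changed sign in log2 fold change with 1 library or both replicate 1 libraries left out. DDX58 ran from -0.096 (without shFOXA2 replicate 1) to 0.37, HERC6 from -0.035 (without both replicate 1 libraries) to 0.48, IFIT2 from -0.18 (without shNC replicate 3) to 0.52 and IRF1 from -0.028 (without shFOXA2 replicate 1) to 0.094. Beside the 5 higher and 4 lower members reported, DESeq2's Wald test gave 2 and 3 (4565 genes called against 6280), an adjusted p of 0.01 gave 3 and 4, and leaving out 1 library at a time gave 3 to 5 and 3 to 4. Of the further lists, 14 higher and 6 lower, DESeq2 gave 6 and 5, and leaving out 1 library at a time 8 to 12 and 5 to 6. Leaving out both replicate 1 libraries, an alternative chosen after seeing the data, gave 5 higher and 4 lower members (DTX3L was lost, adjusted p = 0.0531, and IFITM2 gained, adjusted p = 0.0300) and 11 and 6 genes of the lists (TRIM21 was among those lost, adjusted p = 0.0644). The cause was not tested. Between the lines, a pseudocount of 0.1 CPM gave 3 members higher in SW620 and 6 in SW480, a pseudocount of 5 CPM gave 0 and 3, and a 2-fold limit gave 4 and 5.

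Over all tested genes, the deviations from the group means correlated at -0.004, -0.047 and -0.005 between hairpin libraries of the same number. Over all 9 combinations the correlations ran between -0.047 and 0.041. A correlation over all genes cannot exclude a batch that touches few of them, and replicate 1 was the odd library in both groups. With the replicate block, 5 members were higher and 4 lower, and 6139 genes were called in all. The 6 untested members were all at or under 6 counts in every hairpin library. In the deeper untreated SW620 library HERC5 had 1, IFI44L 4, TRIM22 8, IFI44 13, OASL 26 and BST2 142 counts. The parts of depth and level in this were not tested.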
